A study of Mus musculus with 16 samples.

Results

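Trim71, Lin28a and Lin28b are mRNAs of the let-7 pathway, and their cytosines were followed in RNA bisulfite sequencing of mouse embryonic stem cells. The members were taken by RefSeq mRNA reference, namely NM_001042503.2 (Trim71), NM_145833.1 (Lin28a) and NM_001031772.2 (Lin28b), with every cytosine that had a coverage of 10 reads or more. They are 3 genes of 13275 named genes with an mRNA reference in these libraries. Together they hold 3138 of 4938637 cytosines listed in any library, of which 2612 reached a coverage of 10 in at least 1 library and 1750 did so in all 6. Trim71 was chosen by its measured non-conversion, because many of its cytosines had been seen to be partly non-converted in these same libraries. Its number and level of such cytosines are therefore a description and carry no test.

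The let-7 family of microRNAs accumulates as cells differentiate and represses mRNAs that carry sites for its shared seed. Lin28a and Lin28b encode RNA-binding proteins that hold back the maturation of let-7 precursors, and Lin28a is abundant in pluripotent cells. Trim71, also named Lin41, encodes a ubiquitin ligase that binds RNA and represses target mRNAs, and its own mRNA is a classical let-7 target. Dnmt2 is an enzyme that methylates cytosines of tRNAs.

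The let-7 microRNAs themselves were not measured here, and 4 of their mature sequences are shown because the shared seed defines the pathway. Of 1679 mature mouse microRNA names in the RefSeq table (GRCm38.p6), 11 carried the seed GAGGUAG. The capitals mark the seed, bases 2 to 8 from the 5′ end.
mmu-let-7a-5p: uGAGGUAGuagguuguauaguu
mmu-let-7d-5p: aGAGGUAGuagguugcauaguu
mmu-let-7g-5p: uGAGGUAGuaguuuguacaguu
mmu-miR-98-5p: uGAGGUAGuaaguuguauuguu

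The cells were of the J1 background, and the groups were wild type and Dnmt2-/-, with 3 rRNA-depleted libraries of the long RNA fraction each. All were grown on mouse embryonic fibroblast feeders in serum with leukemia inhibitory factor, and the feeders were removed by letting them attach to dishes. The labels do not say whether replicates or the knockout come from separate clones or cultures, so a p-value speaks of the spread among the 6 libraries, technical spread included. Bisulfite converts unmethylated cytosine to uracil and leaves 5-methylcytosine as it is. Non-conversion is the percentage of reads at a cytosine that still carried a cytosine, and it can also come from cytosines that escaped the reaction.

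Summed coverage was 37786723 in wild type replicate 3 and 79955585 to 143488903 in the other 5 libraries. The background, the pooled non-conversion of cytosines at 10% or less, was 1.42% to 1.77%. Scaled coverage of Trdmt1, the gene of Dnmt2, was 4.32, 3.47 and 2.93 reads per cytosine for wild type against 1.30, 0.458 and 0.978 for the knockout, and the groups did not overlap. That difference (log2 -1.56, SE 0.363) did not pass the limma test over all transcripts (Benjamini-Hochberg adjusted p = 0.370). Of the pluripotency genes, Dppa5a had 950 to 1794 reads per cytosine, Zfp42 274 to 372, Tdgf1 134 to 251 and Sox2 47.7 to 62.6. The main Pou5f1 transcript had 147 to 225 and Klf4 had 16.2 to 45.7. The better covered Nanog transcript had 3.39 to 12.3, and Esrrb had listed cytosines in 2 of the 6 libraries. Of 8 tested transcripts of these genes, 6 had higher and 2 lower means in the knockout, and 0 passed the limma test. The summed coverage of 9 feeder fibroblast genes was 34.7, 39.1 and 62.7 for wild type against 39.9, 37.0 and 19.6 for the knockout. All 9 had lower means in the knockout and 0 passed the limma test, and Dcn among them had no listed cytosine outside wild type replicate 3. Early differentiation genes were low, with a sum of 6.12, 9.04 and 9.20 for wild type against 4.28, 4.29 and 5.04 for the knockout. Of 3 tested, 0 passed, and Sox1 was the one with the lowest p (3.97, 3.94 and 2.35 for wild type against 0.998, 1.31 and 0.775 for the knockout, log2 -1.34, adjusted p = 0.370).

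Among the Trim71 cytosines covered in every library, the non-converted ones lay in a few short stretches, most of them near the 5′ end. Of 1174 cytosines with a coverage of 10 in every library, 27 had a mean non-conversion of 10% or more. Of these 27, 22 fell in the first 1000 nt, which held 253 of the 1174 cytosines. Each of the 27 had another such cytosine within 20 nt, and joining those at most 20 nt apart gave 5 stretches. In the other transcripts, 194 of 429 cytosines at this level (45.2%) had one within 20 nt. These 429 were spread over 251 transcripts, and a transcript with a single such cytosine can have none nearby. Trim71 was chosen for holding many, so the shares are not a like comparison. Over all transcripts, 0.0615% of the covered cytosines had a mean of 10% or more. Whether the Trim71 stretches lie in coding or untranslated sequence was not analysed here.

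**Figure D1:**
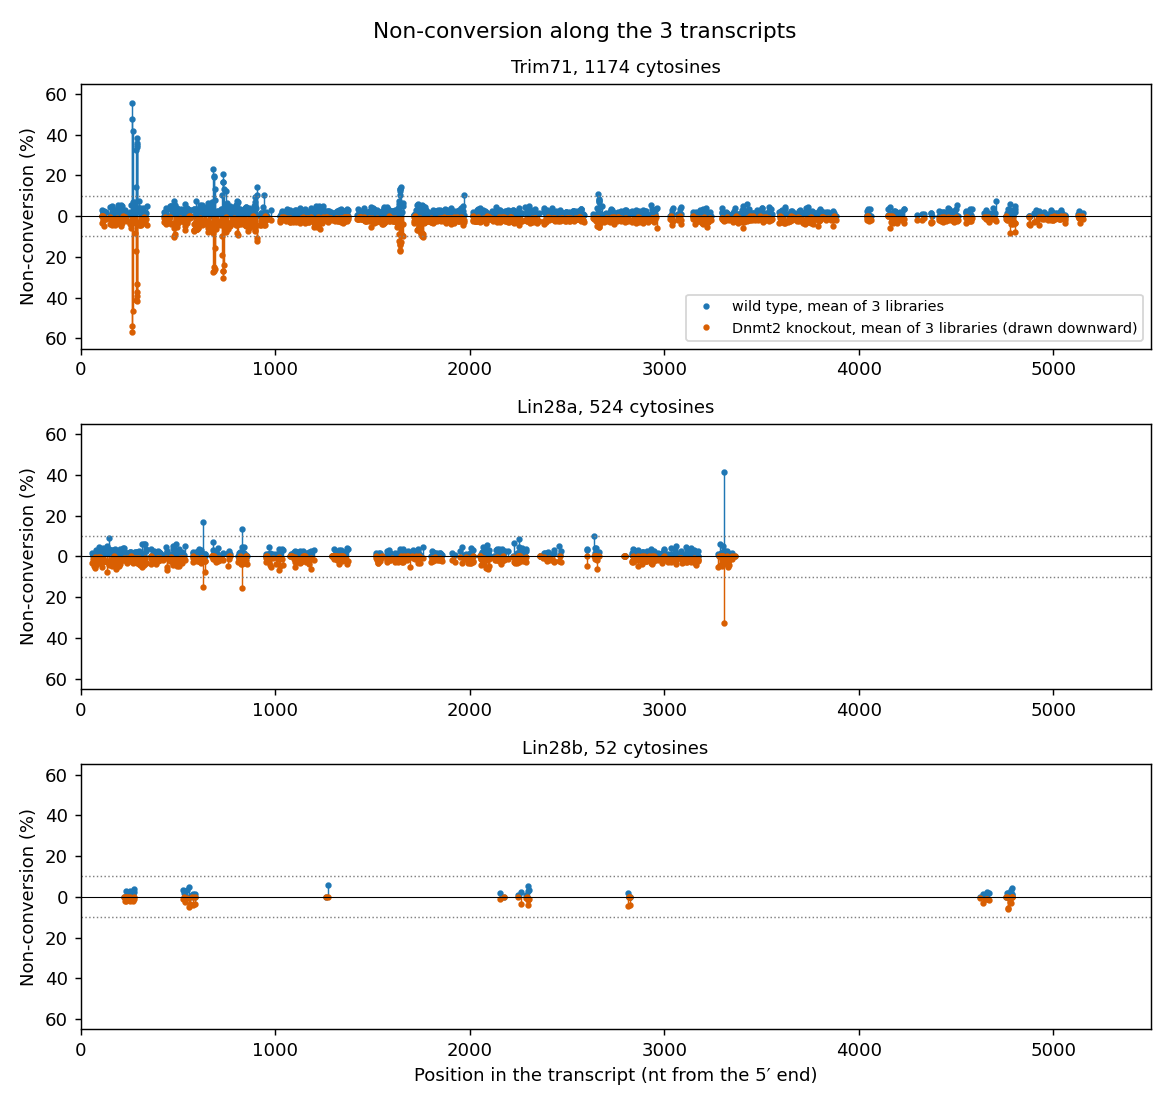
Non-conversion in percent (vertical axis) by position in nt from the 5′ end (horizontal axis) of cytosines with a coverage of 10 or more in all 6 libraries. Blue points, drawn upward, are the means of the 3 wild type libraries and orange points, drawn downward, those of the 3 knockout libraries; dotted lines mark 10%. Of the 1174 cytosines of Trim71, 22 of the 27 with a mean of 10% or more lie in the first 1000 nt, Lin28a has 3 isolated ones among 524, and Lin28b has none among 52.

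The stretch with the highest non-conversion spanned positions 264 to 292 and held 13 cytosines, of which 9 had a mean of 10% or more. The highest single cytosine was at position 265, with 48.0%, 42.3% and 76.3% in the wild type libraries and 53.7%, 37.5% and 78.9% in the knockout libraries, from 25 to 95 reads. Replicate 3 was the highest library in both genotypes, and the groups overlapped. The 95% Wilson interval of wild type replicate 3 at this position was 60.8% to 87.0%, and that of wild type replicate 2 was 29.9% to 55.8%. These intervals treat each read as independent and leave out all other error. With no molecular identifiers, several reads may copy 1 molecule, and the intervals can then be too narrow.

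Position 264 showed 41.7%, 35.7% and 65% for wild type against 46.5%, 35.9% and 78.9% for the knockout. Position 288 showed 27.3%, 19.2% and 68.3% for wild type against 30.5%, 38.3% and 56.3% for the knockout. At all 9 cytosines of this stretch with a mean of 10% or more, replicate 3 was the highest library of its genotype. Between them, the cytosines at positions 271, 274, 280 and 281 had means of 4.40%, 3.39%, 7.55% and 4.25%. The stretch thus had high means on both sides of these 4 cytosines, with 44.2% at position 267 and 36.6% at position 285.

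The pattern across replicates was not the same in each stretch. The second stretch, positions 683 to 691, held 5 cytosines, all with a mean of 10% or more. Pooled over its reads, non-conversion was 11%, 17.2% and 20.2% for wild type against 18.4%, 25.2% and 28.9% for the knockout. The third stretch, positions 727 to 747, had 17.0%, 10.5% and 7.19% for wild type against 20.2%, 18.9% and 12.1% for the knockout. Here replicate 3 was the lowest library of both genotypes, and it was so at all 6 cytosines of the stretch with a mean of 10% or more. In the first stretch the pooled values were 20.2%, 19.4% and 45.0% for wild type against 23.3%, 23.6% and 43.5% for the knockout. Mean coverage in the first stretch was 38.2 reads in wild type replicate 3 and 106 in knockout replicate 3, against 27.4 to 62.7 in the other 4 libraries.

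**Figure D2:**
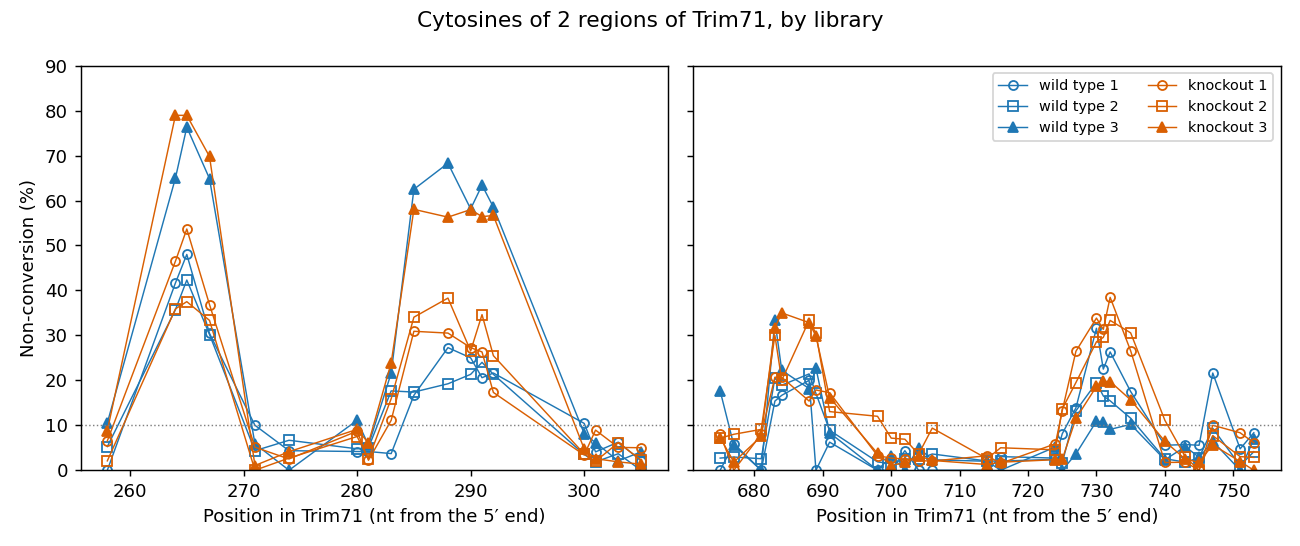
Non-conversion in percent (vertical axis) of each cytosine of Trim71 covered by 10 reads or more in all 6 libraries around positions 264 to 292 (left) and 683 to 747 (right), by position in nt from the 5′ end. Each line is 1 library, blue for wild type and orange for knockout, with filled triangles for replicate 3; the dotted line marks 10%. Replicate 3 is the highest library of its genotype at the 9 cytosines of positions 264 to 292 with a mean of 10% or more and the lowest at the 6 of positions 727 to 747.

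The other stretches lay further along the transcript. Positions 905 to 908 held 2 cytosines with pooled values of 5.41%, 6.90% and 24.0% for wild type against 10.0%, 5.56% and 18.3% for the knockout. Positions 1640 to 1645 held 5 cytosines, with 14.6%, 7.49% and 15.9% for wild type against 11.5%, 12.4% and 20.9% for the knockout. Replicate 3 was again the highest library of each genotype in both stretches. The 1140 covered cytosines outside the stretches had 2.03%, 1.71% and 1.81% for wild type against 2.20%, 2.26% and 1.85% for the knockout. A cytosine at position 1666, too thinly covered in wild type to be counted above, showed 20.0%, 30.0% and 75.0% in wild type from 4 to 10 reads and 25%, 21.4% and 78.3% in the knockout from 12 to 23 reads.

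**Figure D3:**
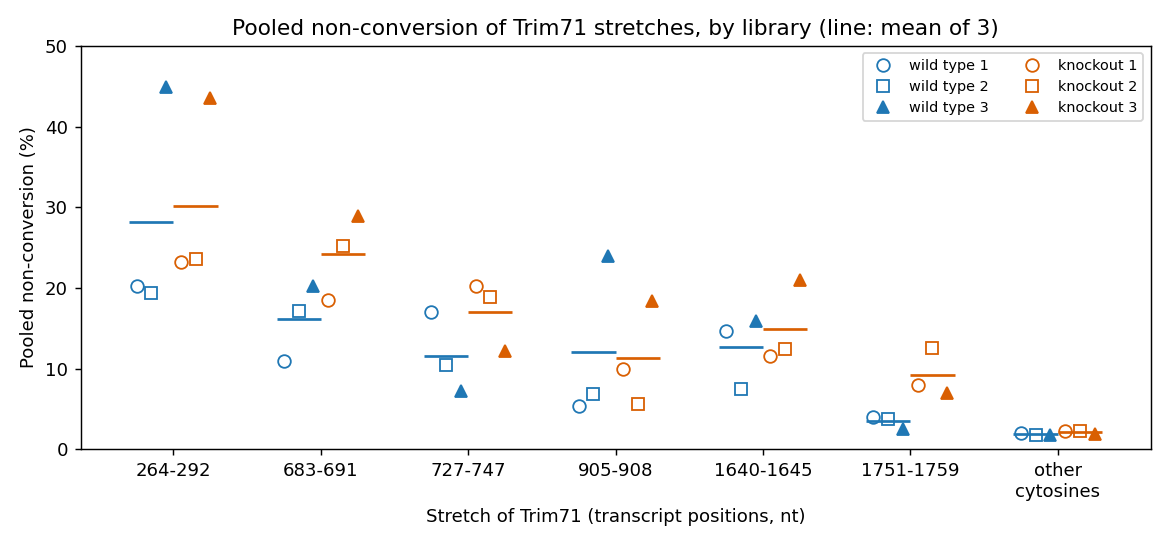
Pooled non-conversion in percent (vertical axis) of 6 stretches of Trim71 and of its other covered cytosines (horizontal axis), with 1 point per library and a line at the mean of the 3 libraries of a genotype. Wild type is blue, knockout orange, and filled triangles are replicate 3. Replicate 3 is the highest of its genotype at 264-292 and the lowest at 727-747, while at 1751-1759 the knockout libraries (7.02% to 12.6%) lie above the wild type libraries (2.54% to 3.98%).

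A cytosine was called non-converted in a genotype if it had a coverage of 10 and non-conversion of 10% or more in each of the 3 libraries and exceeded the library backgrounds (1-sided exact binomial tests combined by Fisher's method, Benjamini-Hochberg adjusted p under 0.05). In Trim71, 14 of 1177 tested cytosines passed for wild type and 25 of 1370 for the knockout, and all 14 were among the 25. Over all transcripts, the percentage called was 0.0212% for wild type and 0.0283% for the knockout. The rule used these levels, so the counts describe Trim71 only. The 14 cytosines had means of 18.7% to 56.1% over the 6 libraries from 12 to 162 reads. Of the cytosines called in both, the lowest library value was 10.2% at position 735, 10.7% at position 731 and 10.9% at position 730. Just outside were position 732 with 9.09%, position 1644 with 8.22% and position 1643 with 7.79%. Of the 25 in the knockout, 7 were tested and not called in wild type, at positions 283, 689, 691, 727, 732, 1638 and 1640. Another 4, at positions 1666, 1669, 4834 and 4840, lacked coverage in wild type. Positions 4834 and 4840 lay far from the 5′ end, where the last listed cytosine was at 5162. In the knockout they had 10.5%, 10.5% and 35.7% (19 to 28 reads) and 18.8%, 17.6% and 16.1% (16 to 31 reads).

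No cytosine of Trim71 passed the edgeR test of genotype. Of the 14 cytosines called in both genotypes, 13 had a higher mean in the knockout, with differences of -0.676 to 11.2 percentage points, and the libraries of the 2 genotypes overlapped at all 14. Compared between libraries of the same number, the knockout was higher in all 3 pairs at 6 of the 14 (positions 264, 267, 684, 730, 731 and 735) and mixed at 8. It was also higher in all 3 pairs in the pooled second stretch (by 7.48, 8.08 and 8.69 percentage points) and the third (by 3.22, 8.40 and 4.94). The pairs were mixed in the pooled stretches at positions 264 to 292, 905 to 908 and 1640 to 1645. Pooled over the 1140 covered cytosines outside the stretches, the knockout was higher in all 3 pairs (by 0.170, 0.554 and 0.0379 percentage points). No label marks these pairs, and the share of all 8193 cytosines higher in all 3 pairs is not given here. With the number as a replicate block, edgeR passed 0 cytosines of Trim71, with 10 at an unadjusted p under 0.05. At position 735, values were 17.5%, 11.6% and 10.2% for wild type against 26.6%, 30.6% and 15.6% for the knockout, and knockout replicate 3 lay below wild type replicate 1. The edgeR quasi-likelihood test of genotype by conversion state ran on 8193 cytosines with a coverage of 10 in all libraries and a mean of 5% or more. It called 0 (0% higher and 0% lower), with 202 at an unadjusted p under 0.05. DESeq2 also called 0, with 92 at an unadjusted p under 0.05. Trim71 held 76 of these cytosines, of which 6 had an unadjusted p under 0.05 in edgeR. The mean was higher in the knockout at 57 of the 76 (75.0%, against 47.0% of all 8193), with a median difference of 2.58 percentage points. This share moved with single libraries, from 46 of 80 without wild type replicate 2 to 70 of 89 without wild type replicate 3. At a mean of 1% or more it was 558 of 974. Neighbouring cytosines lie on the same reads, so these 76 are not independent.

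The groups did not overlap at 9 of the 76 cytosines, 8 of them higher and 1 lower in the knockout. Over all 8193 cytosines, 4.39% were higher and 3.49% lower without overlap. Of the 8, 6 lay between positions 1751 and 1759, a stretch of 7 cytosines that was singled out after its values were seen. Its pooled non-conversion was 3.98%, 3.80% and 2.54% for wild type (3.44% ± 0.784, SD, n = 3) against 7.94%, 12.6% and 7.02% for the knockout (9.18% ± 2.97, SD, n = 3), from 28 to 268 reads per cytosine. Every knockout library lay above every wild type library. The lowest p in Trim71 was at position 1752 (6.5 percentage points higher in the knockout, unadjusted p = 0.00602 by edgeR, adjusted p = 0.999). Fisher's exact test on reads summed per genotype, which leaves out the spread between libraries, passed at this position (adjusted p = 0.0357).

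Over all 1174 covered cytosines, the pooled non-conversion of Trim71 was 2.24%, 1.90% and 2.41% for wild type (2.19% ± 0.263, SD, n = 3) against 2.43%, 2.5% and 2.40% for the knockout (2.44% ± 0.0529, SD, n = 3). The libraries overlapped between genotypes, since wild type replicate 3 lay above knockout replicate 3. The knockout was higher by 0.255 percentage points, with p = 0.20 in a two-sided exact permutation test, where 3 against 3 cannot go below 0.10. This depended on the weighting: with each cytosine counted alike, the means of the ratios were 2.5%, 2.07% and 2.53% for wild type against 2.82%, 2.83% and 2.67% for the knockout. The groups then did not overlap, with a difference of 0.405 percentage points and the smallest exact permutation p that the design allows, 0.10. Without the called cytosines, the remaining 1153 had 1.90% ± 0.173 for wild type against 2.14% ± 0.191 for the knockout (SD, n = 3, exact permutation p = 0.20). Backgrounds of knockout replicates 1 and 2 (1.77% and 1.76%) were above those of the other 4 libraries (1.42% to 1.59%), and the part of this in the difference was not tested.

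Among 2336 transcripts with 100 or more covered cytosines, Trim71 ranked 3 by the share at 10% or more in every library, with 14 of 1174 (1.19%). Cep170b had 4 of 227 (1.76%) and Polr2f had 2 of 133 (1.5%). Plekha1, with a lower share than Trim71, had 1 of 114 (0.877%). None was found in 96.8% of these transcripts, and 0.0159% of all covered cytosines reached this level. By pooled level Trim71 ranked 11 of 2336, with a mean of 2.31% over the 6 libraries against a median of 1.65% (5th to 95th percentile 1.46% to 1.90%). The 27 cytosines of Trim71 at 10% or more had a median of 7 other cytosines within 10 nt, and 17 of 27 (63.0%) lay directly beside another cytosine. For its other 1147 cytosines these values were 6 and 51.4%. Median coverage was 57.2 reads at the 27 and 85.7 reads at the others.

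Lin28a differed in that its non-converted cytosines stood alone. At position 3306, non-conversion was 23.5%, 45.9% and 55.6% for wild type against 29.7%, 39.1% and 29.3% for the knockout, from 17 to 61 reads. The groups overlapped, with wild type replicate 1 the lowest and wild type replicate 3 the highest of the 6 libraries. The 19 other covered cytosines within 20 nt of it had means of at most 5.29%. The highest mean within 20 nt was 4.32% around position 628 and 4.2% around position 832. Position 628 had 13.8%, 19.3% and 17.6% for wild type against 23.2%, 12.8% and 9.43% for the knockout. Position 832 had 12.5%, 10.8% and 16.7% for wild type against 15.4%, 12.0% and 19.1% for the knockout. These 3 were called in wild type (of 527 tested, 0.569%, against 0.0212% over all transcripts). Positions 3306 and 832 were also called in the knockout (of 698 tested, 0.287%, against 0.0283% over all transcripts). At position 628 the knockout call failed on replicate 3, whose 9.43% was just under the limit of 10%.

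Of 9 Lin28a cytosines in the edgeR test, 0 passed and 0 had an unadjusted p under 0.05; 3 had higher and 6 lower means in the knockout. Pooled over 524 cytosines, Lin28a had 1.61%, 1.60% and 1.79% for wild type (1.67% ± 0.108, SD, n = 3) against 1.96%, 2.04% and 1.52% for the knockout (1.84% ± 0.280, SD, n = 3). Knockout replicate 3 was the lowest of the 6 libraries, and the difference of 0.176 percentage points was within the spread (exact permutation test, two-sided, p = 0.40).

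In Lin28b no cytosine was called, among 60 tested in wild type and 108 in the knockout, and coverage limits what could be seen. Of its 877 listed cytosines, 420 reached 10 reads in some library and 52 in all 6. The highest of these 52 was position 557, with 2.94%, 2.00% and 9.09% for wild type against 3.85%, 4.17% and 7.69% for the knockout from 22 to 50 reads. Replicate 3 was the highest library of each genotype there. Positions 4769 and 2301 had means of 4.03% and 3.53% over the 6 libraries. Pooled non-conversion of Lin28b was 1.44%, 1.53% and 1.69% for wild type (1.55% ± 0.128, SD, n = 3) against 1.81%, 1.59% and 1.35% for the knockout (1.58% ± 0.231, SD, n = 3). The groups overlapped, and the difference was within the spread (exact permutation test, two-sided, p = 0.90).

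Transcript levels were compared as the mean number of reads per cytosine, scaled between libraries, a measure that does not grow with transcript length. Trim71 had 55.0, 61.7 and 83.4 for wild type against 76.3, 63.6 and 95.2 for the knockout. Lin28a had 34.0, 32.8 and 56.2 for wild type against 36.8, 38.1 and 63.9 for the knockout. Lin28b had 7.88, 5.34 and 7.49 for wild type against 4.94, 6.47 and 5.83 for the knockout. Within every library the order was Trim71, Lin28a, Lin28b, and the genotypes overlapped for each gene. Trim71 and Lin28a were highest in replicate 3 of each genotype.

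**Figure D4:**
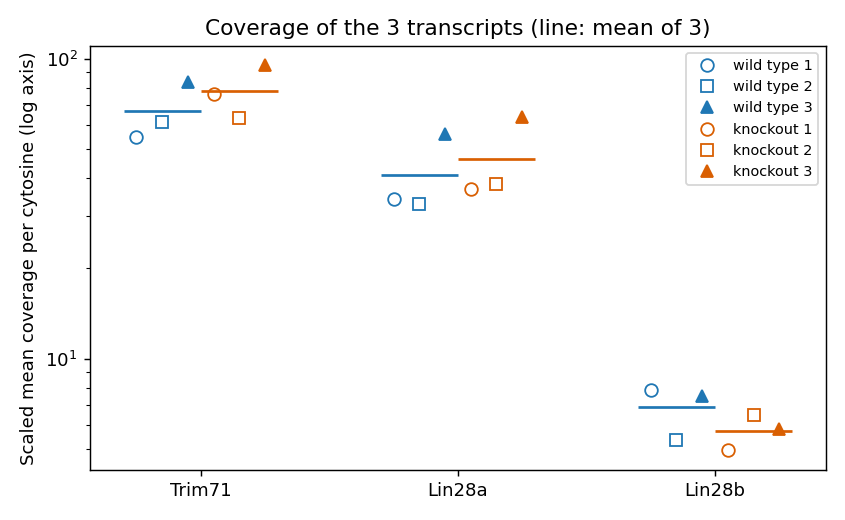
Scaled mean coverage per cytosine (vertical axis, log scale) of Trim71, Lin28a and Lin28b, with 1 point per library and a line at the mean of the 3 libraries of a genotype. Wild type is blue, knockout orange, and filled triangles are replicate 3. Trim71 (55.0 to 95.2) lies above Lin28a (32.8 to 63.9) in each library, Lin28b (4.94 to 7.88) is lowest, and the genotypes overlap for all 3.

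No coverage difference of a member passed the limma test, which called 0 of 10949 transcripts (0% higher and 0% lower) with 778 at an unadjusted p under 0.05. The log2 difference, knockout minus wild type, was 0.23 for Trim71 (SE 0.203, Benjamini-Hochberg adjusted p = 0.960). It was 0.17 for Lin28a (SE 0.274, adjusted p = 0.985) and -0.23 for Lin28b (SE 0.195, adjusted p = 0.957). By mean coverage Trim71 ranked 455, Lin28a 808 and Lin28b 5195 of 10949. In bulk RNA, fewer cells of a type and less RNA per cell cannot be told apart. The feeder fibroblast sum above was lowest in knockout replicate 3 and the early differentiation sum was lower in each knockout library than in any wild type library, and their part in these values was not tested. Single libraries moved these differences: Trim71 was at 0.07 without knockout replicate 3 and 0.40 without wild type replicate 3. Lin28a was at -0.10 and 0.41 without the same libraries, and Lin28b at -0.14 without wild type replicate 1 and -0.40 without wild type replicate 2.

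The transcripts whose log2 coverage followed a member most closely over the 6 libraries were found by Pearson's r, given as a description. They were Ubald1 (0.986), Noa1 (0.979) and Mrps26 (0.974) for Trim71. For Lin28a they were Slc27a2 (0.992), Spc24 (0.991) and Cpsf7 (0.990), and for Lin28b Copb2 (0.995), Gmfb (0.991) and Kif11 (0.989). All values of a library share its depth and scaling.

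Among the genes that make let-7 or hold it back, no transcript passed the test of coverage. The list held 20 genes, of which 18 had enough coverage to be tested, with 19 transcripts. In limma 0 passed, 9 had higher and 10 lower means in the knockout, and the median log2 difference was -0.01 (all transcripts 0.03). The list includes Trim71, Lin28a and Lin28b, and without them 7 were higher and 9 lower, with a median of -0.01. Khsrp, a protein that promotes let-7 processing, had 41.1, 48.0 and 61.5 reads per cytosine for wild type against 38.4, 35.0 and 47.4 for the knockout (log2 -0.31, SE 0.182, adjusted p = 0.871). Xpo5, the exporter of microRNA precursors, had 26.8, 23.0 and 37.0 for wild type against 26.7, 26.1 and 32.2 for the knockout (log2 -0.01, SE 0.188, adjusted p = 0.999). The genotypes overlapped for both genes. In this list, cytosines with a mean of 10% or more occurred in Trim71 and Lin28a alone.

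The list of let-7 targets held 24 genes, of which Myc was not analysed here and 21 were tested, with 22 transcripts. In limma 0 passed, 9 had higher and 13 lower means, and the median was -0.09. Without Trim71, Lin28a and Lin28b, which this list also includes, 7 were higher and 12 lower, with a median of -0.13. Mycn, a transcription factor of the Myc family, had 69.4, 54.7 and 88.7 reads per cytosine for wild type against 106, 99.0 and 130 for the knockout. Every knockout library lay above every wild type library (log2 0.67, SE 0.195, adjusted p = 0.40). Cdc34, a ubiquitin-conjugating enzyme, had 88.8, 98.5 and 97.6 for wild type against 81.4, 72.6 and 88.3 for the knockout (log2 -0.24, SE 0.124, adjusted p = 0.823). For Cdc34 too the groups did not overlap, with the knockout lower. Sall4, a transcription factor of pluripotent cells, had 39.4, 45.4 and 57.2 for wild type against 61.7, 53.6 and 56.8 for the knockout, and the groups overlapped (log2 0.29, SE 0.156, adjusted p = 0.833). The difference with the lowest p was that of the cyclin gene Ccnd2, which was named after its values were seen. It had 8.01, 10.1 and 9.71 for wild type against 4.68, 5.20 and 3.79 for the knockout (log2 -0.96, SE 0.175, adjusted p = 0.352). Its groups did not overlap either, with the knockout lower. The share of all tested transcripts without overlap is not given here.

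Mycn was also the transcript in the let-7 target list, besides Trim71 and Lin28a, with cytosines at a mean of 10% or more. It had 11 among 612 covered in every library, with 1 called for wild type (0.0212% over all transcripts) and 9 for the knockout (0.0283% over all transcripts). A call can fail on 1 library, and this difference in the number of calls was not tested.

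**Figure D5:**
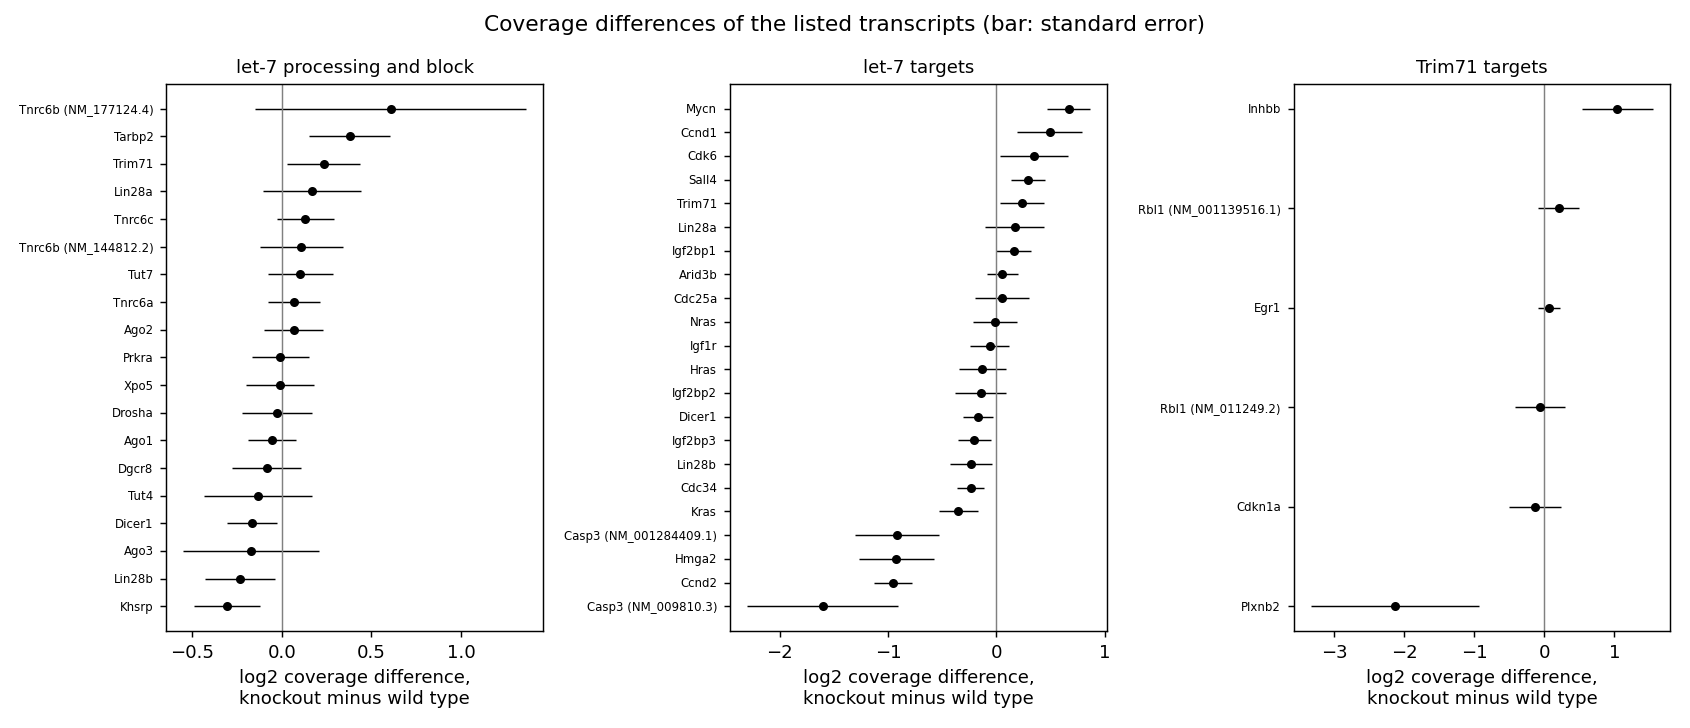
Log2 difference of scaled coverage, knockout minus wild type (horizontal axis), of the tested transcripts of 3 gene lists (vertical axis, 1 transcript per line), with bars for the standard error. The vertical line marks no difference. No transcript passed the limma test, and the members lie at 0.23 (Trim71), 0.17 (Lin28a) and -0.23 (Lin28b).

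The list of reported Trim71 targets held 8 genes, of which Rbl2 was not analysed here and 5 were tested, with 6 transcripts. In limma 0 passed, 3 had higher and 3 lower means, and the median was 0.00. Cdkn1a, a cell cycle inhibitor, had 13.9, 12.4 and 32.8 reads per cytosine for wild type against 12.4, 15.2 and 22.6 for the knockout (log2 -0.14, SE 0.372, adjusted p = 0.992). Egr1, an early growth response factor, had 9.04, 11.6 and 10.4 for wild type against 11.9, 11 and 9.59 for the knockout (log2 0.07, SE 0.152, adjusted p = 0.990). The genotypes overlapped for both. Inhbb, an activin subunit, had 4.57, 3.66 and 1.00 for wild type against 8.39, 7.92 and 3.22 for the knockout (log2 1.04, SE 0.513, adjusted p = 0.792). This difference was 0.50 without wild type replicate 3 and 1.43 without knockout replicate 3. Replicate 3 was the lowest library of each genotype, and knockout replicate 3 lay below wild type replicates 1 and 2. The better covered of 2 tested transcripts of Rbl1, a pocket protein of the cell cycle, had a log2 difference of 0.20 (SE 0.291, adjusted p = 0.984).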

How the data were processed

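Non-conversion of cytosines was measured by RNA bisulfite sequencing in 16 libraries, of which the 6 rRNA-depleted long RNA libraries were used. Per the file headers, the deposited values are the coverage, a count of reads per cytosine, and the unconversion ratio, a fraction of these reads; BSMAP and build mm9 are named in the submitters' processing notes, with version and filters not given in the sources used here. No deposited coverage was under 3, and unlisted cytosines were taken as 0. In all 20824445 entries, the product of coverage and ratio missed a whole number by at most 8e-10 (tolerance 0.01), which gave the non-converted reads. Gene names came from a RefSeq table of GRCm38.p6 (15239 of 15330 transcripts). The members and gene lists were chosen with earlier results of these data known.

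Genotypes were compared per cytosine with edgeR 4.0.16 (quasi-likelihood, genotype by conversion state) and per transcript with limma 3.58.1 (trend) on log2 of TMM-scaled mean coverage plus 0.5, at a mean of 1 or more. This scale makes changes of low transcripts look smaller. Both used R 4.3.3, and the scripts were tested on simulated data. Single values used exact permutation tests. Named cytosines are the Trim71 cytosines called in both genotypes and the 3 highest of Lin28a and Lin28b; named list genes are the best covered. Median coverage per library was 6 to 11 reads, which limits single cytosines.

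Deviations from the group means in log2 coverage correlated between libraries of the same number at 0.24, 0.11 and 0.56. Wild type replicate 1 and knockout replicate 2 correlated at 0.48, and wild type replicate 2 and knockout replicate 1 at 0.15. Seen from both genotypes, only replicate 3 was thus matched best in coverage by its own number, and no label marks pairs. Knockout replicate 1 was also matched best by wild type replicate 1, which itself was matched best by knockout replicate 2. In non-conversion the values for the same number were 0.0793, 0.108 and 0.242 over the tested cytosines and 0.368, 0.342 and 0.630 over the covered cytosines of Trim71. For wild type replicate 1 and knockout replicate 2 they were 0.0851 and 0.228. For wild type replicate 2 and knockout replicate 1 they were 0.0567 and 0.275.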

Additional observations from a re-analysis of the deposited data

How the results depend on the processing

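Coverage limits single cytosines, above all in Lin28b. The Trim71 calls depended on the non-conversion minimum: at 5% they were 23 in wild type and 49 in the knockout, and at 20% they were 6 and 10. Lin28a had 1 call in wild type at 20% and 1 at a coverage minimum of 20, and 1 in the knockout at 20%. The Lin28b difference in pooled non-conversion was -0.0630 percentage points at a coverage minimum of 5 and 0.553 percentage points at a minimum of 20, which left 3 cytosines. The cause of the turn at 5 was not tested. That of Trim71 was 0.405 percentage points with each cytosine counted alike, where the genotypes did not overlap. Fisher's exact test on summed reads, which leaves out the spread between libraries, called 27 cytosines. With each library left out in turn, edgeR called 0 to 1 cytosines (1, in no member, without wild type replicate 3) and limma 0 to 1 transcripts (1 without knockout replicate 1). Using replicates 1 and 2 alone, chosen after seeing the data, Trim71 had 16 calls in wild type and 27 in the knockout. Its difference in pooled non-conversion was then 0.40 percentage points and that of Lin28a 0.384 percentage points, both more than 1.5 times the difference over all libraries (exact permutation p = 0.333, the smallest that 2 against 2 allows).

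Leaving out 1 library at a time gave a pooled difference of -0.0278 to 0.148 percentage points for Lin28b, 0.111 (without wild type replicate 2) to 0.374 (without wild type replicate 3) for Trim71 and 0.0790 to 0.336 for Lin28a. Over the same fits the direction turned at 8 cytosines, none of which passed the test in any fit. The ranges were -6.26 to 15.3 percentage points at position 264 of Trim71, -9.96 to 11.5 at 265, -6.74 to 16.3 at 267 and -6.08 to 18.5 at 288. They were -7.92 to 14.1 at 290, -5.54 to 16.8 at 291 and -12.4 to 11.7 at 292, and -5.81 to 1.06 at position 628 of Lin28a. In log2 coverage the direction turned for Lin28a (-0.10 to 0.41), Xpo5 (-0.16 to 0.17), Cdkn1a (-0.39 to 0.29), Egr1 (-0.022 to 0.14) and the 2 tested Rbl1 transcripts (-0.032 to 0.33 and -0.34 to 0.086).

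With a replicate block for the library number, edgeR called 0 cytosines (176 at an unadjusted p under 0.05) and limma 0 transcripts (1186 at an unadjusted p under 0.05). In the same pairing, exact sign-flip permutation of the pooled differences gave p = 0.50 for Trim71 and Lin28a and p = 0.75 for Lin28b, where 3 pairs cannot go below 0.25. The block changed no call.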
